A study of Mus musculus with 6 samples.

Results

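Integrins are receptors of the cell surface, each built from an alpha and a beta chain, and the genes described here are those of stromal and cartilage cells together with nephronectin, a matrix protein that such a receptor binds. There were 10 genes: the alpha chains Itga1, Itga5, Itga8, Itga10, Itga11 and Itgav, the beta chains Itgb1 and Itgb5, the beta-like secreted protein Itgbl1, and the ligand Npnt. A probe set was taken as a member when the array annotation gave it a single gene symbol and that symbol was 1 of these 10. The rule found 25 probe sets of 9 genes among 30618 probe sets, of which 25090 stood for 13817 single genes. No probe set carried Itga11 as its single symbol, so Itga11 was not analysed here.

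The 6 arrays held RNA of cartilage and underlying bone dissected together from the joint end of the tibia, each from 1 male C57Bl/6J mouse aged 6 weeks. The label Frzb -/- stands for mice that lack Frzb, a secreted WNT antagonist. The 3 arrays with this label have the titles 14, 17 and 6, whereas the wild-type arrays have the titles 6-1, 8-1 and 9-1. The piece dissected also holds marrow and the upper growth plate according to the study's description of a stained section. The study's text says that a mouse first taken as Frzb -/- clustered with the wild-type mice and proved heterozygous when genotyped again. It was left out, and the text does not give its number. Titles 14 and 17 are called the Frzb -/- arrays below, and title 6 is given apart.

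Frzb, the deleted gene, was low in all 3 arrays with the Frzb -/- label. At its brighter probe set the log2 value was 7.02 and 6.42 in the Frzb -/- arrays titled 14 and 17, 6.93 in title 6, and 10.02, 10.79 and 10.16 in the wild-type arrays. The other Frzb probe set read 5.22 and 4.92 in the Frzb -/- arrays, 5.34 in title 6, and 8.12, 8.96 and 8.08 in the wild-type arrays. Title 6 thus lay with titles 14 and 17 for Frzb mRNA. Over all probe sets the order was different: title 6 correlated at 0.940 to 0.957 with titles 14 and 17 and at 0.983 to 0.991 with the wild-type arrays (Pearson's r). Among the 3 labelled arrays, title 6 is thus the one that lay with wild-type, as the study describes for its heterozygous mouse. Cartilage and bone markers gave high values on every array, among them Col2a1, the main collagen of cartilage, with 14.70 and 14.69 in the Frzb -/- arrays, 14.73 in title 6, and 14.56, 14.75 and 14.70 in the wild-type arrays.

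The alpha chain largely sets which matrix protein an integrin holds. The chains Itga5, Itga8 and Itgav bind proteins that carry an RGD motif (arginine, glycine, aspartate), while Itga1, Itga10 and Itga11 bind collagens, Itga10 being known from chondrocytes. Itgb1 pairs with each of these alpha chains, Itgb5 pairs with Itgav, and nephronectin is a basement membrane ligand of the receptor formed by Itga8 and Itgb1, best known from the developing kidney. Itgbl1 resembles the EGF-like stalk of a beta chain but is secreted and anchors in no membrane.

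Because Itga8, Itgbl1 and Npnt held the probe sets that passed the test described below, the DNA around their start sites is shown first, as RefSeq windows of the GRCm38.p6 build that run from 250 bases before to 50 bases after a start. The windows lie at chr2:12301895-12302194 on the minus strand for Itga8, chr14:123659890-123660189 on the plus strand for Itgbl1 and chr3:132950242-132950541 on the minus strand for Npnt, each written 5′ to 3′ with GC boxes in capitals.
Itga8: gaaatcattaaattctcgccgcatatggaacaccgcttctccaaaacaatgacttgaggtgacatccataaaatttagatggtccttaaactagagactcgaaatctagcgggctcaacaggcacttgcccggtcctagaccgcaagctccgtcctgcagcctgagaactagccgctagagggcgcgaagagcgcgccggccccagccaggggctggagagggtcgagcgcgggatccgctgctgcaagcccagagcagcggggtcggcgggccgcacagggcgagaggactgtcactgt
Itgbl1: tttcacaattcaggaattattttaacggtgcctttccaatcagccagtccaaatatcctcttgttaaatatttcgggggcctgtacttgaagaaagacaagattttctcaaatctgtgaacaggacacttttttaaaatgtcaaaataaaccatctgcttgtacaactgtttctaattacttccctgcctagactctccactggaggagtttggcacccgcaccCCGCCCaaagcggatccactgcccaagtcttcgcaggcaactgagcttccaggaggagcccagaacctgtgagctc
Npnt: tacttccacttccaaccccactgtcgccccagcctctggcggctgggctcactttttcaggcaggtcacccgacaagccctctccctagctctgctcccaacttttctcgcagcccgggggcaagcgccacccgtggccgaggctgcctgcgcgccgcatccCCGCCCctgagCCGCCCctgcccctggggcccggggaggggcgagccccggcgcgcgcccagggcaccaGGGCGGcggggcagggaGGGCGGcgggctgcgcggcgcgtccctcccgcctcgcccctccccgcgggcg
A GC box, GGGCGG or CCGCCC on the other strand, occurred 4 times in the Npnt window and 1 time in that of Itgbl1, and was absent from that of Itga8. It occurs in 35.7% of the 32851 RefSeq promoter windows of this length. RefSeq has a second Npnt window, further into the gene, which held no GC box and is not printed. The GC content was 59.0% for Itga8, 45.3% for Itgbl1 and 76.7% for the printed window of Npnt, against a median of 52.7% over all windows.

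The core of the sites bound by TCF and LEF factors, the DNA-binding partners of beta-catenin in WNT signalling, was searched as CTTTGA on both strands. It was found in 16.0% of all windows and in none of the 3 windows printed above, which also had no CArG box, the site of serum response factor (in 1.63% of all windows), and no TATAAA (13.6%). Among the windows of the other members it occurred in those of Itga1, at positions -113 to -108 counted from the start site, and Itga10, at -187 to -182. The stretches around these matches are shown with the core in capitals, from chr13:115102058-115102087 on the minus strand and chr3:96645387-96645416 on the plus strand.
Itga1: agcccgggcaCTTTGAaagtaccctttcta
Itga10: tttgtgttttCTTTGAatattagctgaggc
No overlap between the motifs searched was seen in the printed sequences. A match of letters is a description of the window, and binding was not measured.

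The member genes lay higher in the Frzb -/- arrays than in the wild-type arrays, with Itgbl1 and Itga8 changing most. Differences were tested with limma over all 30618 probe sets with Benjamini-Hochberg adjustment, and a probe set was called when the adjusted p was under 0.01 and the log2 fold change of Frzb -/- over wild-type exceeded 1 in size. Taking each gene by its brightest probe set, 2 of 9 genes were called higher (Itga8 and Itgbl1), against 3.03% of all genes, and 0 were called lower, against 6.02%. By probe sets, 4 of 25 were called higher, against 2.34% of all probe sets, and 0 lower, against 5.09%. None of the 25 was lower at an unadjusted p under 0.05 in the limma test either, and the share of all probe sets at that limit was not computed. When any probe set may stand for its gene, Npnt was added and 3 of 9 genes were called higher, against 3.79% of all genes.

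At the looser limit of an adjusted p under 0.05 with no limit on size, 7 of 9 member genes were higher, against 13.8% of all genes. The exceptions were Itgav and Itga10. The median log2 fold change of the 9 genes was 0.65, with a range of 0.35 to 1.88, against a median of 0.04 over all 13817 genes. Both Frzb -/- arrays exceeded all 3 wild-type arrays for 8 of 9 genes, against 31% of all genes, and for 21 of 25 probe sets, against 27.5% of all probe sets. Itga8, Itgbl1 and Npnt are also among the genes that the study listed from these same arrays, so their calls here are not independent evidence of a change. With 2 arrays against 3, an exact permutation test of a single gene could not give a p below 0.1.

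**Figure D1:**
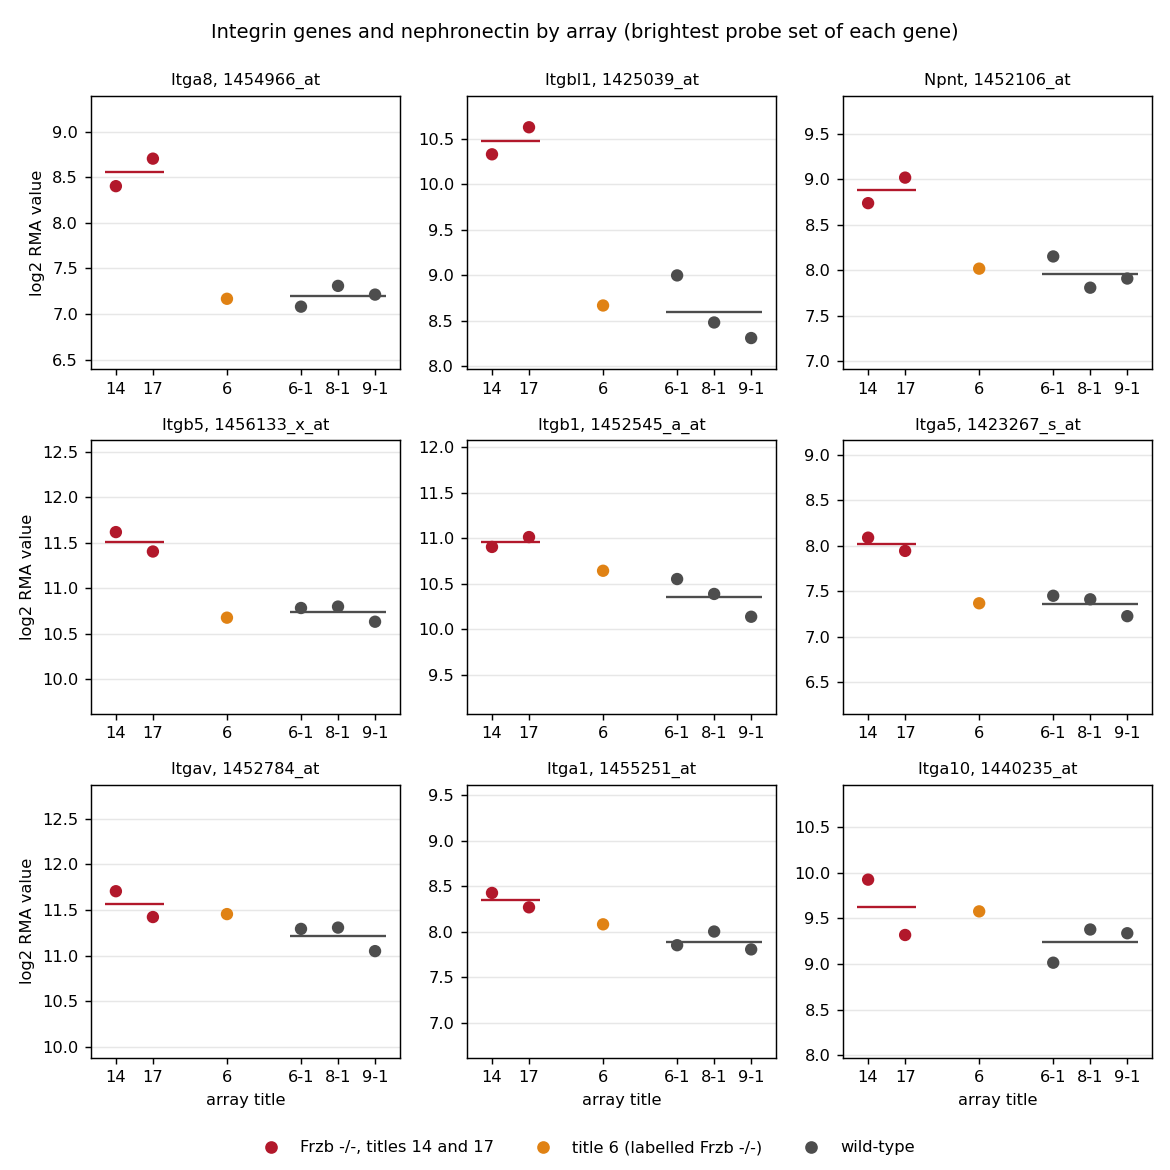
Log2 RMA value of each member gene at its brightest probe set, with 1 point per array and lines at the means of the Frzb -/- arrays titled 14 and 17 and of the 3 wild-type arrays; all panels span the same number of log2 units. For Itga8, Itgbl1, Npnt, Itgb5 and Itga5 title 6 lies among the wild-type arrays, and for Itga10 the Frzb -/- and wild-type arrays overlap.

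Itga8, the alpha chain of the nephronectin receptor, was measured by 2 probe sets, both called higher. The brighter one read 8.40 and 8.71 in the Frzb -/- arrays, 7.17 in title 6, and 7.08, 7.31 and 7.21 in the wild-type arrays. The lowest Frzb -/- value stood 1.09 log2 units above the highest wild-type value, and title 6 lay within the wild-type range. The log2 fold change was 1.35 ± 0.14 (SE), or 2.56-fold (limma adjusted p = 0.0015). The other Itga8 probe set had 4.96 and 5.48 in the Frzb -/- arrays, 3.95 in title 6, and 3.60, 3.70 and 3.60 in the wild-type arrays. Its log2 fold change was 1.59 ± 0.17 (SE, limma adjusted p = 0.0015), and title 6 was above the wild-type range here by less than the gap to either Frzb -/- array. The wild-type values of this probe set lay near the floor of the arrays, which limits what the size of its fold change can show. Without title 17 the brighter probe set no longer passed (log2 fold change 1.20, limma adjusted p = 0.012), whereas the other still did.

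Itga5, the alpha chain of the classical fibronectin receptor, had 8.09 and 7.94 in the Frzb -/- arrays at its brightest probe set, 7.37 in title 6, and 7.45, 7.41 and 7.23 in the wild-type arrays. The groups did not overlap, and the log2 fold change of 0.65 ± 0.13 (SE, limma adjusted p = 0.012) did not pass. A second Itga5 probe set differed by 0.63 (limma adjusted p = 0.088), and the remaining 2 by 0.11 and -0.08. The last of these was the only 1 of the 25 probe sets with a mean below wild-type.

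Itgav, which pairs with several beta chains and has a part in activating latent TGF-beta, gave different readings at its 2 probe sets. At the brighter one it had 11.71 and 11.42 in the Frzb -/- arrays, 11.46 in title 6, and 11.29, 11.31 and 11.05 in the wild-type arrays, a log2 fold change of 0.35 (95% interval -0.003 to 0.70, limma adjusted p = 0.13). At the dimmer one it had 6.63 and 7.04 in the Frzb -/- arrays, 6.44 in title 6, and 5.92, 5.52 and 5.06 in the wild-type arrays. That difference was large in size, 1.33 ± 0.26 (SE), but missed the threshold with a limma adjusted p of 0.0111, and the wild-type arrays alone had an SD of 0.43. It passed only without wild-type array 6-1 (log2 fold change 1.55, limma adjusted p = 0.0083). Itgav lies within 10 Mb of Frzb on chromosome 2 in RefSeq, and the part of that position in these values was not tested. Itga8 is also on chromosome 2 but outside that window.

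Neither collagen-binding chain that was measured was called. Itga1, which binds basement membrane collagen, had 8.43 and 8.27 in the Frzb -/- arrays, 8.08 in title 6, and 7.85, 8.00 and 7.81 in the wild-type arrays. The log2 fold change was 0.46 ± 0.13 (SE, limma adjusted p = 0.037), and its other probe set differed by 0.40 (limma adjusted p = 0.21) with overlapping groups. Itga10, the collagen receptor chain of chondrocytes, read 9.93 and 9.32 in the Frzb -/- arrays, 9.58 in title 6, and 9.01, 9.38 and 9.34 in the wild-type arrays. Title 17 was below 2 of the wild-type arrays, and the difference was 0.38 with a 95% interval of -0.12 to 0.88 (limma adjusted p = 0.23).

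Itgb1, the shared beta chain, read 10.91 and 11.01 in the Frzb -/- arrays at its brightest probe set, 10.64 in title 6, and 10.55, 10.39 and 10.14 in the wild-type arrays. The groups did not overlap, and the log2 fold change was 0.60 ± 0.15 (SE, limma adjusted p = 0.029), which did not pass. A further pair of probe sets differed by 0.80 (limma adjusted p = 0.037) and 0.58 (limma adjusted p = 0.086). The other 2 of its 5 probe sets had log2 values of 2.82 to 4.01 over all arrays and differed by 0.13 and 0.11. Itgb5, the partner of Itgav in a vitronectin receptor, gave similar differences at its 4 probe sets, 0.75 to 0.80 in log2. The brightest had 11.62 and 11.40 in the Frzb -/- arrays, 10.68 in title 6, and 10.78, 10.80 and 10.63 in the wild-type arrays (log2 fold change 0.77 ± 0.13 SE, limma adjusted p = 0.0067). The p limit was met at this probe set and the fold limit was not, and title 6 lay within the wild-type range.

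Itgbl1 changed most of all members at its only probe set. It had 10.33 and 10.63 in the Frzb -/- arrays, 8.67 in title 6, and 9.00, 8.48 and 8.31 in the wild-type arrays. The Frzb -/- arrays stood at least 1.33 log2 units above every wild-type array, and title 6 lay inside the wild-type range. The log2 fold change was 1.88 ± 0.22 (SE), or 3.68-fold (limma adjusted p = 0.0020). Without title 17 it was 1.73 (limma adjusted p = 0.019) and without wild-type array 8-1 it was 1.82 (limma adjusted p = 0.012), so neither passed.

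Npnt, the ligand, was higher at all 4 of its probe sets and was called at 1. That probe set, the second brightest, read 7.93 and 7.80 in the Frzb -/- arrays, 6.42 in title 6, and 6.64, 6.53 and 6.59 in the wild-type arrays. The wild-type arrays spanned little, title 6 fell just below them, and the log2 fold change was 1.27 ± 0.12 (SE), or 2.42-fold (limma adjusted p = 0.0012), a call that held with each of the 5 arrays left out in turn. The brightest Npnt probe set had 8.74 and 9.02 in the Frzb -/- arrays, 8.02 in title 6, and 8.15, 7.81 and 7.91 in the wild-type arrays. Its log2 fold change of 0.92 ± 0.16 (SE, limma adjusted p = 0.0069) met the p limit but not the fold limit. The remaining 2 differed by 0.72 (limma adjusted p = 0.0050) and 0.46 (limma adjusted p = 0.036).

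**Figure D2:**
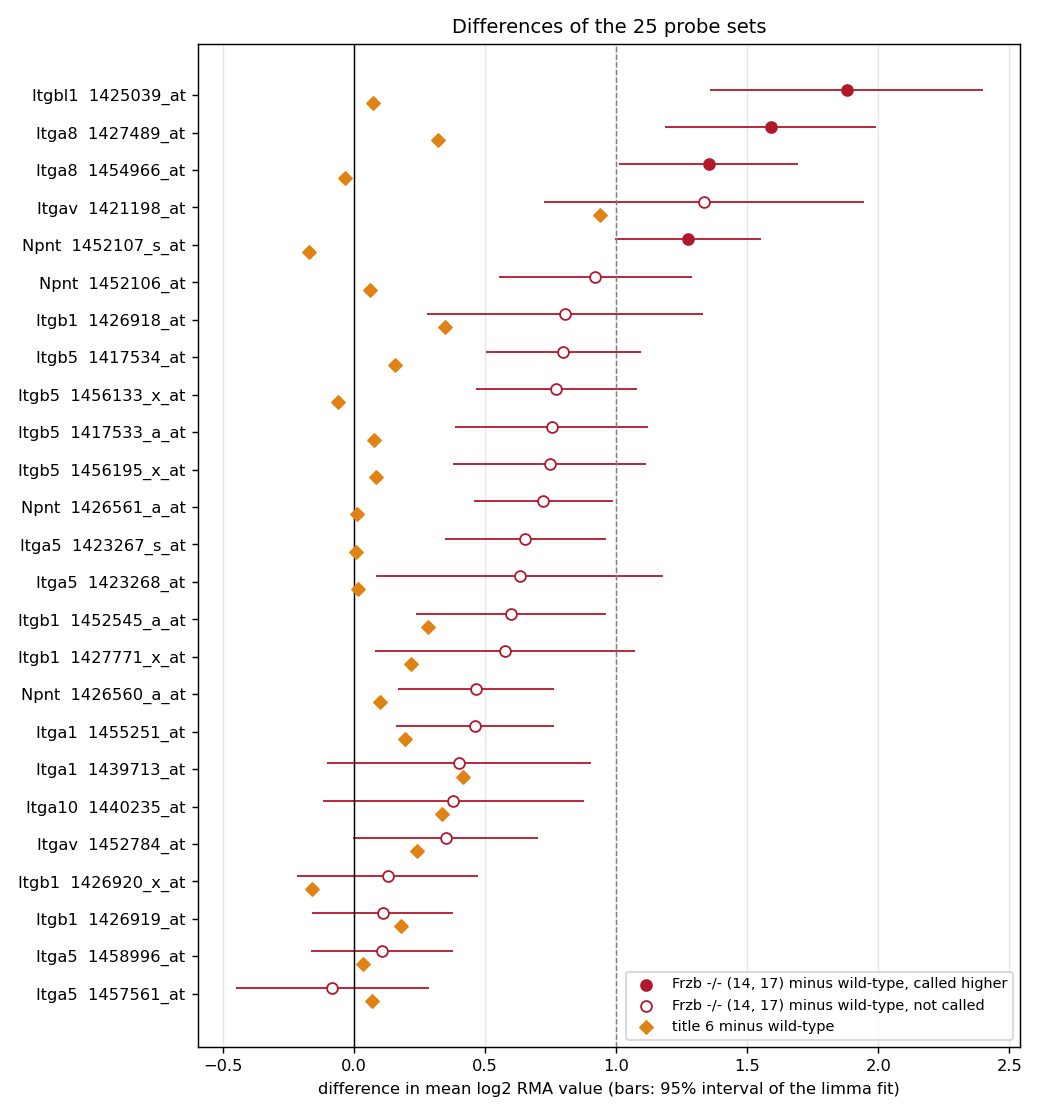
Difference in mean log2 RMA value from the wild-type arrays for the 25 probe sets, ordered by size: circles with 95% intervals for the Frzb -/- arrays titled 14 and 17 (filled where called higher) and diamonds for title 6, with a dashed line at a log2 fold change of 1. The 4 called probe sets belong to Itgbl1, Itga8 and Npnt, and the Itgav probe set among them in rank misses the p limit.

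Title 6 lay at or near the wild-type level for some members and above it for others. Of the 9 genes, 5 lay within the wild-type range in title 6 (Itga5, Itga8, Itgb5, Itgbl1 and Npnt) and 4 above it, and its median difference from wild-type was 0.07, against 0.0006 over all genes. The shares of all genes within and above the wild-type range were not computed, so these counts say nothing particular about the members. As a share of the distance between the wild-type mean and the mean of titles 14 and 17, title 6 stood at 88.3% for Itga10, 68.6% for Itgav, 47.3% for Itgb1 and 42.3% for Itga1. For Itga10 and Itgav the distance itself was not clearly above 0 at these probe sets, as given above. Other probe sets gave 103.7% for Itga1 and from -126.6% to 166.1% for Itgb1. The greatest title 6 difference at any of the 25 probe sets was 0.94, at the dimmer Itgav probe set (95% interval 0.17 to 1.71). These intervals come from a fit of all 6 arrays as 3 groups, where title 6 is a single array assumed to vary like the others. In that fit even Frzb, with a log2 difference of -3.39 between title 6 and wild-type, had a limma adjusted p of 0.091, so that a missing call there says nothing on whether a member differed.

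Setting the Frzb -/- arrays directly against title 6 in the same fit, 1 gene was called higher by its brightest probe set, Itga8, against 1.06% of all genes. Its log2 difference was 1.39 ± 0.19 (SE, limma adjusted p = 0.0074). By probe sets there were 2 calls, against 0.787% of all probe sets, the second being the Npnt probe set called above (1.45, limma adjusted p = 0.0050). The log2 difference of Itgbl1 was 1.81 (95% interval 1.11 to 2.51, limma adjusted p = 0.011) and that of Itgb5 was 0.83 (95% interval 0.42 to 1.25, limma adjusted p = 0.023). All of these set a pair of mice against 1 mouse, whose own spread is unknown. These comparisons share arrays with those against wild-type and are given side by side only. When title 6 was counted as Frzb -/-, as it is labelled, 0 member genes were called by limma, against 0% of all genes, so that this count says nothing particular about the members. At an unadjusted p under 0.05 there were 3 of 9, against 12.5% of all genes. The log2 fold changes then ran from 0.31 to 1.28 and the lowest adjusted p was 0.43.

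Itgb1 pairs with most of these chains, so the change of each was also tested after the value of its brightest probe set was subtracted array by array. Itgbl1 exceeded the change of Itgb1 by 1.28, with 1.19 and 1.37 in the Frzb -/- arrays, -0.21 in title 6, and 0.21, -0.14 and -0.06 in the wild-type arrays, relative to the wild-type mean. Itga8 exceeded it by 0.75, with 0.66 and 0.85 in the Frzb -/- arrays, -0.32 in title 6, and -0.31, 0.08 and 0.23 in the wild-type arrays. The other 6 genes differed from the change of Itgb1 by -0.25 to 0.32. In limma 1 of 8 genes was called, Itgbl1 (adjusted p = 1.6e-05), against 0.557% of all genes, with Itga8 at an adjusted p of 0.0080 but under the fold limit. All these differences share the error of 1 Itgb1 probe set, which the moderated fit does not count as shared. Without moderation, an alternative chosen after the data had been seen, 0 were called. The share of all genes called in that fit was not computed, so this 0 says nothing particular about the members. In the t-test without moderation the adjusted p was 0.072 for Itgbl1 and 0.10 for Itga8 (unadjusted p = 0.0037 and 0.042 for these genes). Over all genes the median change relative to Itgb1 was -0.56.

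Among the RGD and related ligands of these receptors, 14 genes were measured, with a median log2 fold change of 0.61. Of these, 0 were called lower, against 6.02% of all genes. At an unadjusted p under 0.05 in limma 2 were lower, and the share of all genes at that limit was not computed. The genes called higher numbered 3, against 3.03% of all genes. They were Egfl6, a secreted RGD protein bound by Itga8 with Itgb1 (1.63 ± 0.11 SE, limma adjusted p = 0.00095), Postn, periostin of collagen-rich tissue (1.22 ± 0.21 SE, limma adjusted p = 0.0074), and Tgfb3 (1.04 ± 0.18 SE, limma adjusted p = 0.0072), whose latent form Itgav receptors bind. Egfl6 read 6.90 and 6.87 in the Frzb -/- arrays, 5.35 in title 6, and 5.25, 5.32 and 5.20 in the wild-type arrays, with no overlap. Fn1, fibronectin, was 0.72 higher (limma adjusted p = 0.013) and Ibsp, the bone sialoprotein, 0.16 (limma adjusted p = 0.40), and neither passed. The count of 3 dropped to 1 without wild-type array 8-1 or 9-1, and it also fell without title 14 or title 17. Over all probe sets, the calls higher and lower fell as well with any array left out. Without wild-type array 8-1 the higher calls went from 717 to 298. This holds for the lists below too, so a drop alone does not set a list apart.

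Of the 10 collagen ligands, with a median of 0.63, 0 were called lower, against 6.02% of all genes. At an unadjusted p under 0.05 in limma 0 were lower, again without a share of all genes to set beside it. Called higher were 3 of 10, against 3.03% of all genes. These were Col5a1, a fibril collagen of soft connective tissue (1.35 ± 0.12 SE, limma adjusted p = 0.0011), and the basement membrane chains Col4a2 (1.29 ± 0.18 SE, limma adjusted p = 0.0037) and Col4a1 (1.20 ± 0.18 SE, limma adjusted p = 0.0048). Col5a1 had 12.76 and 12.58 in the Frzb -/- arrays, 11.67 in title 6, and 11.35, 11.28 and 11.34 in the wild-type arrays. The main collagens of cartilage and bone matrix had log2 fold changes of 0.03 for Col2a1 (limma adjusted p = 0.87) and 0.18 for Col1a2 (limma adjusted p = 0.28). The count of 3 fell to 1 without title 14, title 17 or wild-type array 8-1.

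Of the integrin subunits outside the member list, 17 were measured, with a median log2 fold change of -0.20. Among them 5 were called lower, against 6.02% of all genes, and 1 higher, against 3.03%. Those called lower were Itgal (-2.34), Itgb2 (-1.64) and Itgam (-1.36), which form leukocyte integrins, Itgb2l (-2.23), a relative of Itgb2, and Itga4 (-1.55), of haematopoietic cells. Itgal had 7.45 and 6.55 in the Frzb -/- arrays, 9.23 in title 6, and 9.17, 9.43 and 9.44 in the wild-type arrays, so title 6 again lay with wild-type. Itgb8, a partner of Itgav, was the 1 called higher (1.02 ± 0.15 SE, limma adjusted p = 0.0043), and its call was lost when any of the 5 arrays was left out. The 5 lower calls fell to 1 without title 17 or wild-type array 8-1. Itga6, the laminin receptor chain, was bright and little changed (-0.20, limma adjusted p = 0.36). Itga4 and Itga6 also lie within 10 Mb of Frzb.

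The cytoplasmic proteins that tie integrins to actin had calls in both directions, with a median of 0.01. Of 28 genes, 3 were called higher, against 3.03% of all genes, and 5 lower, against 6.02%. Higher were Dab2, an endocytic adaptor of integrins (1.22), Parva (1.12) and Lims2 (1.01), members of the complex around integrin-linked kinase. Lower were Parvg (-2.11) and Fermt3 (-1.93), the parvin and the kindlin of blood cells, Ptk2b (-1.28), a kinase related to focal adhesion kinase, Parvb (-1.15) and Zyx (-1.03), zyxin of stress fibres. Fermt3 read 10.77 and 9.71 in the Frzb -/- arrays, 12.16 in title 6, and 12.06, 12.00 and 12.45 in the wild-type arrays. Flna, the actin crosslinker filamin, differed by -0.21 (limma adjusted p = 0.33). Without title 17 there were 0 calls in either direction, and without title 14 there were 1 higher and 4 lower. Without wild-type array 6-1, 8-1 or 9-1 the lower calls numbered 1, 1 and 2.

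**Figure D3:**
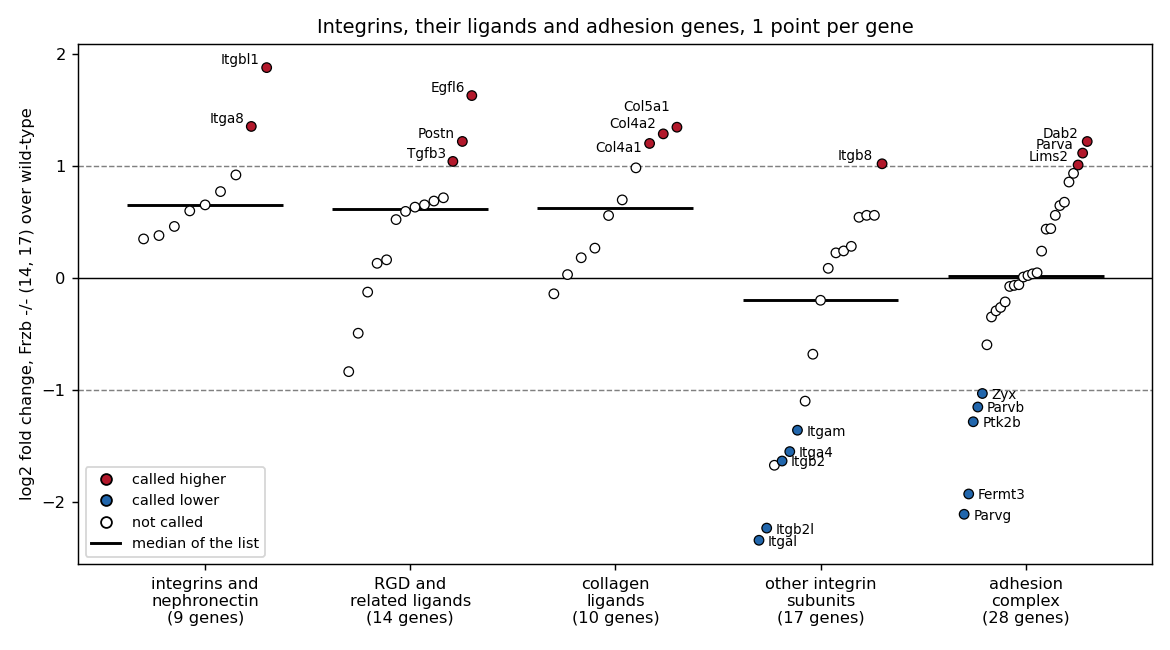
Log2 fold change of the Frzb -/- arrays titled 14 and 17 over wild-type, with 1 point per gene by its brightest probe set, for the 9 measured members, 14 RGD and related ligands, 10 collagen ligands, 17 other integrin subunits and 28 adhesion complex genes; horizontal bars are list medians and dashed lines mark log2 fold changes of 1 and -1. Called genes are filled and named, and all genes called lower lie in the last pair of columns.

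Markers of several cell types moved along with the members. Calls in the marker lists stand against 3.03% of all genes called higher and 6.02% called lower. At such shares, 0 calls in a short list says nothing particular about that list. Summed on the linear scale over each list, the 7 fibroblast markers came to 41272 to 42123 in the Frzb -/- arrays, 25625 in title 6, and 18375 to 22062 in the wild-type arrays. Of these, 5 of 7 were called higher, led by Col14a1 (2.26) and Dpt (1.77), matrix genes of fibroblasts, and this count was 2 without title 14, 1 without title 17 and 2 without wild-type array 8-1. The 10 smooth muscle and pericyte markers summed to 28144 to 28628 in the Frzb -/- arrays, 13198 in title 6, and 13534 to 18026 in the wild-type arrays. Among them 3 of 10 were called higher, namely Myh11 (1.79), Tagln (1.44) and Acta2 (1.24), which encode contractile proteins, and 0 without title 17. Of the 3 adipocyte markers measured, Adipoq was called higher (1.21), a call lost without title 14, title 17, wild-type array 8-1 or wild-type array 9-1. For 8 endothelial and 4 tendon markers there were 0 calls (7 and 4 higher at an unadjusted p under 0.05 in limma), with medians of 0.56 and 0.51. The share of all genes at that unadjusted limit was not computed, so the counts of 7 and 4 cannot be set against it.

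Blood cell markers moved in the other direction, where 6.02% of all genes were called lower. The 6 leukocyte markers summed to 6359 to 8593 in the Frzb -/- arrays, 20084 in title 6, and 16326 to 24082 in the wild-type arrays, with 5 of 6 called lower. All 7 neutrophil markers were called lower, with sums of 23675 to 33047 in the Frzb -/- arrays, 97660 in title 6, and 85002 to 112274 in the wild-type arrays. So were all 5 erythroid markers measured, with sums of 2551 to 3758 in the Frzb -/- arrays, 22659 in title 6, and 16675 to 23452 in the wild-type arrays. Without wild-type array 8-1 the lower calls numbered 1 leukocyte, 4 neutrophil and 5 erythroid genes, while those over all probe sets fell from 1558 to 676. Without title 17, calls were lost in each of these lists and over all probe sets. Without title 14, calls of these lists were lost among the leukocyte genes only. RMA values do not reach 0 and detection calls were not used, so the presence of a marker on an array was not judged. For 9 cartilage, 6 bone, 5 osteoclast and 4 skeletal muscle markers there were 0 calls in limma (2, 2, 0 and 0 at an unadjusted p under 0.05). Here too the share of all genes at the unadjusted limit was not computed. In bulk tissue, fewer cells of a type and less RNA per cell cannot be told apart, and the part of these markers in the values of the integrin genes was not tested.

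**Figure D4:**
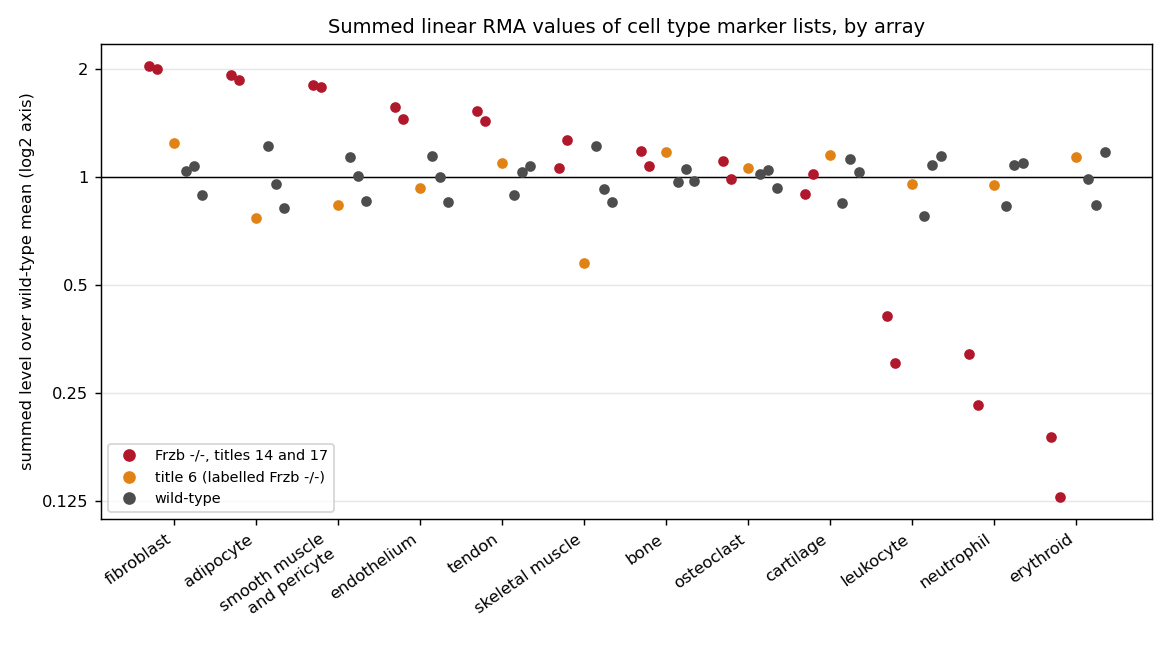
Sum of the linear RMA values of each marker list by array, divided by the mean of the 3 wild-type arrays and drawn on a log2 axis, with lists ordered by the ratio in the Frzb -/- arrays. Fibroblast, adipocyte and smooth muscle and pericyte lists lie highest and the 3 blood cell lists lowest in titles 14 and 17, while title 6 lies nearer the wild-type arrays in these lists.

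The genes with the array profile most like that of Itga8 were sought among all 13817 genes, as the smallest root mean square difference over the 6 arrays after each profile was centred on its wild-type mean. They were Kcnj15, a potassium channel (0.071 log2 units), Bmp4, a growth factor of the BMP family (0.080), and Qpct, glutaminyl cyclase (0.11). For Itgbl1 they were Thbs2, a matrix thrombospondin (0.12), Sfrp2, a secreted WNT modulator related to Frzb (0.15), and Scara5, a ferritin receptor (0.15). Among the members, the closest to Itgbl1 was Itga8, at rank 153 of all genes, and the furthest was Itga10, at rank 3680. By likeness to Itga8, Npnt came closest at rank 330, Itgbl1 stood at rank 769 and Itga10 was furthest at rank 3361.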

How the data were processed

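RNA of 6 mice was measured on Affymetrix Mouse Genome 430 2.0 arrays. The deposited values are log2 expression values, which the authors computed by RMA with affy 1.20.0 (background correction, quantile normalisation and summary by probe set). They were used as deposited, with array medians of 7.32 to 7.45. Arrays have no read depth, and the number of arrays limits the precision. Detection calls were not used here. Probe sets with several symbols (677) or none in the annotation (4851) were tested but stand for no gene. A gene with several probe sets counts by the one with the highest mean over the 6 arrays.

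Fits used limma 3.58.1 (lmFit and eBayes, two-sided) in R 4.3.3, with Benjamini-Hochberg adjustment over all probe sets and calls at 0.01 and a log2 fold change above 1 in size. The fit was tested on simulated data. Other steps ran in Python 3.11.15 (pandas 2.3.3, numpy 2.4.6, matplotlib 3.10.9, scipy 1.17.1). Named genes are all members, the 2 called genes with the largest change and the 2 brightest of each list, further called genes where a count was small, the 3 genes most like a called member, and other integrin subunits within 10 Mb of Frzb. For marker lists only those that bear on the members are named. The members, the lists and the setting apart of title 6 were chosen with earlier results of these data known. Alternatives were all 3 arrays labelled Frzb -/-, each array left out, all 6 arrays in 3 groups, a filter on dim probe sets, cyclic loess, trended and robust moderation, other probe set rules and a looser call.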

Additional observations from a re-analysis of the deposited data

How the results depend on the processing

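Of 248 fits of single member probe sets under the alternatives, 247 kept the direction. The exception was a dim Itgb1 probe set, which ranged from -0.042 to 0.30 when 1 array was left out. It was below 0 without title 14. The fit in 3 groups, the filter on dim probe sets and the trended and robust moderation leave each log2 fold change as it was. Those fits could not change a direction, and the remaining ones reuse the same arrays. The share over all probe sets that kept the direction was not computed. The count of 2 member genes called became 0 with all 3 arrays labelled Frzb -/-, 7 at an adjusted p under 0.05 with no fold limit, and 0 to 2 when 1 array was left out. Over all probe sets, 717 were called higher and 1558 lower. These counts became 0 and 0 with all 3 labelled arrays (3534 at an unadjusted p under 0.05), 415 and 1004 among probe sets above the median (fewer probe sets tested), 3592 and 4532 at the looser limit, and 97 to 570 and 335 to 1506 when 1 array was left out. Relative to Itgb1, the 1 call became 0 without moderation, where the share of all genes was not computed. It stayed 1 when 1 wild-type array was left out. Between the Frzb -/- arrays and title 6, the 1 call became 5 at the looser limit and 2 after cyclic loess. For this comparison the share of all genes was not computed at the looser limit or after cyclic loess. The counts of 5 and 2 thus say nothing particular about the members. Elsewhere the cause of a shift was not tested. A Frzb -/- array left alone when the other is omitted is assumed to vary like the wild-type arrays. No paired analysis was made because the labels name no pairing of arrays. Values near the floor of the arrays limit what the dim Itgb1, Itga5 and Itga8 probe sets can show. Leaving out arrays for the counts of the ligand, adhesion and marker lists was chosen after the data had been seen.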
